A study of Mus musculus with 5 samples.

Results

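The genes described here act at the output of the circadian clock and in its auxiliary feedback loops. They are Dbp, Tef, Hlf, Nfil3, Bhlhe40, Bhlhe41, Ciart, Rora and Wee1. These 9 genes were chosen by name, and all probe sets that the platform annotation gives to 1 of these symbols alone were taken, which made 23 of 34958 such probe sets and 9 of 18194 genes. The samples were whole lungs of naive female mice of 5 strains, each measured once. C57 was C57BL/6J itself. The other 4 strains were wild type or knockout for 1 of the phosphodiesterases PDE4B and PDE4D, enzymes that break down cyclic AMP, and are called 4B(+/+), 4B(-/-), 4D(+/+) and 4D(-/-). Per the labels, all 4 lines came from a mixed C57BL/6 and 129/Ola background and had been backcrossed to C57BL/6J for 11 or more generations, so the wild-type lines share that breeding history with the knockouts and C57 does not. No elastase was given to any animal, and the labels give no ages.

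Each array held RNA mixed from 3 of 5 frozen lungs of its strain, so a value is that of a pool and the spread between animals is not known. With 1 array per strain no difference has a replicate check and no p-value is given. A gene is called higher or lower where the log2 intensities of 2 arrays differ by at least 1.5-fold, and the share of all genes called the same way is printed beside it. The hour at which the lungs were taken, which matters for clock genes, is not stated in the labels. C57 is the single array of its kind, so strain, pool, time of collection and array cannot be told apart in any difference from it. In whole tissue, fewer cells of a type and less RNA per cell cannot be told apart either.

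In the core of the mammalian clock, the proteins CLOCK or NPAS2 and ARNTL (BMAL1) bind E-boxes and switch on the Per, Cry and Nr1d genes, whose products feed back as repressors. The same E-boxes drive output genes, among them Dbp, Tef and Hlf, which encode the PAR bZIP factors, activators that bind D-boxes in further targets. NFIL3 is a repressor at those D-boxes, and its gene and Arntl respond to the ROR activators and REV-ERB (NR1D) repressors that compete for the response element called RORE. Genes driven through E-boxes and genes driven through ROREs therefore peak at opposite times of day in most tissues, lung included.

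Promoter sequences are shown for the members whose C57 level stood apart and whose promoter held a searched motif. RefSeq promoters of assembly GRCm38.p6, from 250 bases before to 50 bases after a gene's start, were listed for 7 of the 9 members, in 8 windows. The motifs searched on both strands were the E-box CACGTG, the related E-prime-box CACGTT, the D-box TTATGTAA or TTACGTAA, the RORE core TAGGTCA or TGGGTCA, and the cyclic AMP response element (CRE) TGACGTCA. In the lines that follow, written 5′ to 3′ on the strand of the gene, capitals mark these matches, and no match overlaps another. The Ciart window lies at chr3:95882179-95882478 on the minus strand, the Tef windows at chr15:81802423-81802722 and chr15:81811164-81811463 on the plus strand, the Nfil3 window at chr13:52980990-52981289 and the Hlf window at chr11:90390868-90391167, both on the minus strand.
Ciart: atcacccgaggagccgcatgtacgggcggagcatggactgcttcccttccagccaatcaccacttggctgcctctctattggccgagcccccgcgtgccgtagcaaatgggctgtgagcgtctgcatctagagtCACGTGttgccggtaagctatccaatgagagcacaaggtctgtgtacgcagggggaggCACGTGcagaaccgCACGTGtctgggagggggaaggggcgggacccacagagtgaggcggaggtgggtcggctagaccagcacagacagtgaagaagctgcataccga
Tef, upstream start: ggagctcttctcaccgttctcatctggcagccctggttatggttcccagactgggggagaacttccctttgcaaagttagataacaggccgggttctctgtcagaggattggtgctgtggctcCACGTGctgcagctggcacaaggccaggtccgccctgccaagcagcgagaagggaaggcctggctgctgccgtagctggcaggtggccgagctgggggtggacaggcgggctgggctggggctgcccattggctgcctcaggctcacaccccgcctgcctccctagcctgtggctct
Tef, downstream start: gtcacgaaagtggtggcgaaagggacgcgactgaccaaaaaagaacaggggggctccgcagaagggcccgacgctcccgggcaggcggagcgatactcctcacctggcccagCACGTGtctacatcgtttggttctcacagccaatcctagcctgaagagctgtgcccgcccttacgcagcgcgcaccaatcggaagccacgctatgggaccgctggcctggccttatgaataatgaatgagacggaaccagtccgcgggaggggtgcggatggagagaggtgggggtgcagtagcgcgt
Nfil3: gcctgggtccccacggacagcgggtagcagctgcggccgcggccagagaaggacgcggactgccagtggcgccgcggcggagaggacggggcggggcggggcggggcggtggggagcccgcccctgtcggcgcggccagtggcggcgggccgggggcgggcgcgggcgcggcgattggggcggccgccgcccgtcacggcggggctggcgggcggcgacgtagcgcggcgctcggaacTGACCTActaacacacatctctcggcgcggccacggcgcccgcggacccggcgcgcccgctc
Hlf: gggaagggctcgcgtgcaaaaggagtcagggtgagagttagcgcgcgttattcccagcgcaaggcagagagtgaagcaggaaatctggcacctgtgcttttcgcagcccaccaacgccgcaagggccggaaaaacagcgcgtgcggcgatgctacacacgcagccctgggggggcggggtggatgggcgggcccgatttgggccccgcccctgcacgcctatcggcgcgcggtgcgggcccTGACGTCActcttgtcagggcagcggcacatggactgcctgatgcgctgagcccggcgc

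Ciart held 3 E-boxes, whose 5′ ends lay 116, 58 and 44 bases before the start. Of 32851 promoters of the same length 7.15% held an E-box, and 0.0883% held 3 or more. Each of the Tef windows held 1 E-box, 127 bases before the upstream start and 138 before the downstream one. Nfil3 held 1 RORE core on its reverse strand (TGACCTA as printed), 12 bases before the start, a motif found in 6.45% of promoters. Hlf held 1 CRE 9 bases before its start, found in 1.79% of promoters. Bhlhe41 held 1 E-box, and the windows of Dbp and Rora held none of the searched letters. These matches describe the sequence in these windows and say nothing of binding.

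The tissue label was checked against 8 markers of lung epithelium, and all 8 were far over the expression floor, an intensity of 64 (log2 6), in each array. Their summed intensity lay between 109071 and 115272, a range of 1.06-fold. Sums of markers of other tissues, read further below, varied more, by 8.76-fold for skeletal muscle and 17.2-fold for thyroid and parathyroid. Of the 9 members 8 reached the floor in at least 1 array, and 17 of the 23 probe sets did. Bhlhe41, a repressor at E-boxes, was the member under it. Its brighter probe set (1421099_at) read 21.3 in C57, 21.7 in 4B(+/+), 19.2 in 4B(-/-), 21.3 in 4D(+/+) and 22.3 in 4D(-/-), so nothing is said of its order. Ciart passed the floor through C57 alone and thus had to differ from it to be counted, as did the pair of dimmer Tef probe sets.

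**Figure D1:**
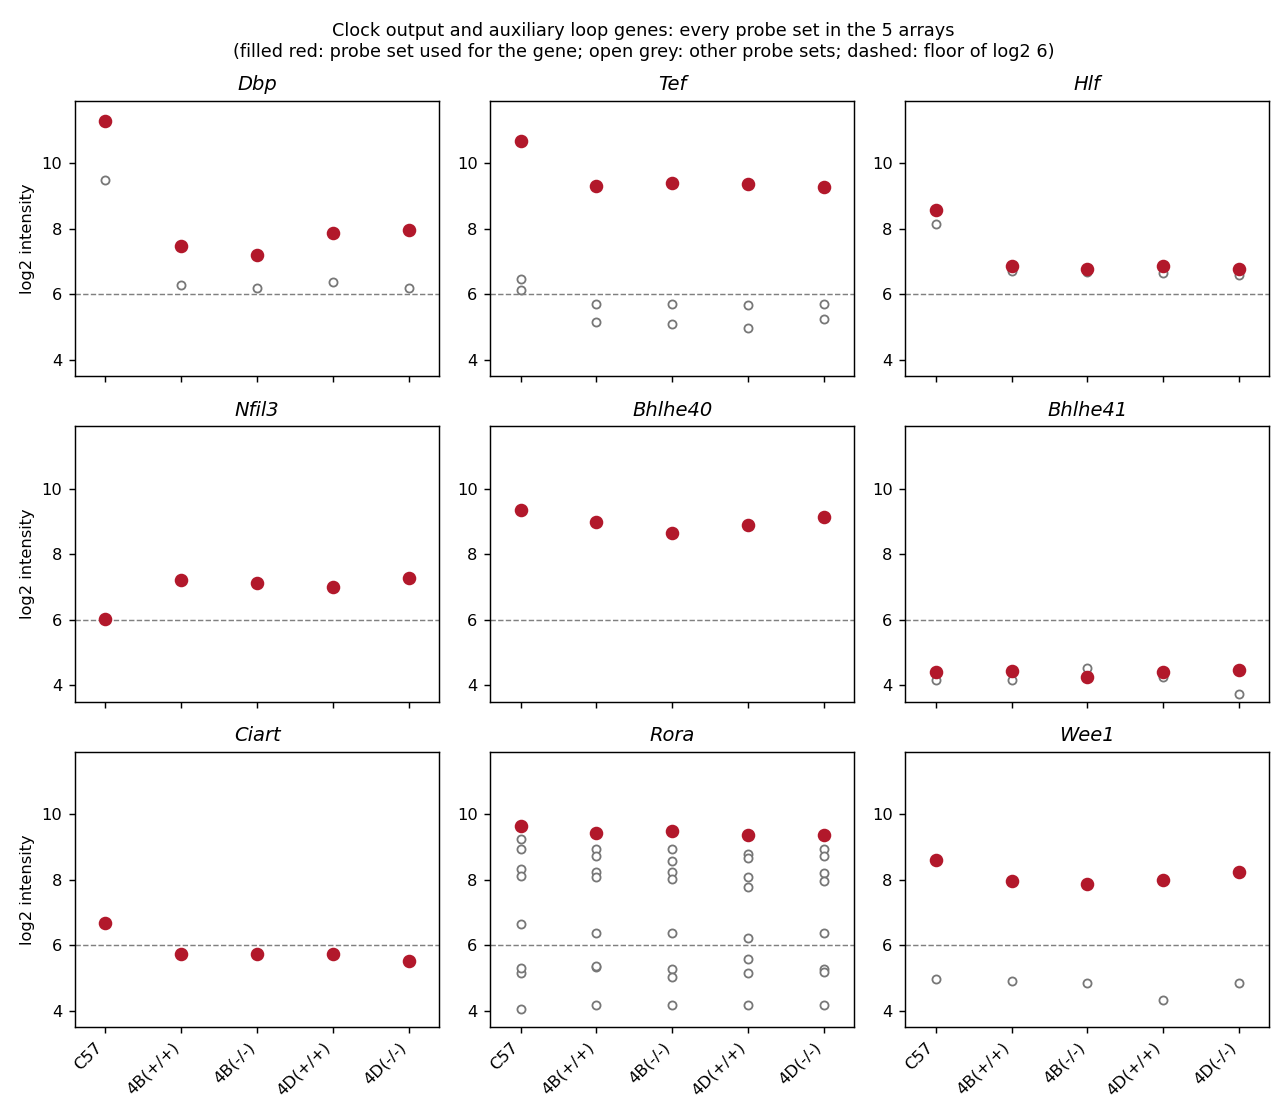
Intensity on the log2 scale (vertical axis) of all 23 probe sets of the 9 genes in the 5 arrays (horizontal axis), with the probe set used for each gene in filled red, the others as open grey circles and the floor of log2 6 dashed. C57 is the highest array for Dbp, Tef, Hlf and Ciart and the lowest for Nfil3, while Bhlhe41 lies under the floor in all 5 arrays.

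The D-box activators set C57 apart from the 4 lines. Dbp (probe set 1438211_s_at) read 2475 in C57, 176 in 4B(+/+), 146 in 4B(-/-), 233 in 4D(+/+) and 247 in 4D(-/-). C57 was thus 10.0-fold above the nearest other array, while the 4 lines lay within 1.69-fold of each other. On its other probe set (1418174_at) Dbp read 721 in C57, 78.0 in 4B(+/+), 73.5 in 4B(-/-), 82.6 in 4D(+/+) and 73.4 in 4D(-/-), with C57 8.73-fold above the nearest. Both probe sets put C57 far above every line, but they order the 4 lines differently.

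Tef (1424175_at) read 1630 in C57, 637 in 4B(+/+), 673 in 4B(-/-), 651 in 4D(+/+) and 611 in 4D(-/-). C57 stood 2.42-fold above the nearest line, and the lines lay within 1.10-fold of each other. The dimmer Tef probe sets gave gaps of 1.84-fold and 1.68-fold, both against values under the floor. Hlf (1434736_at) read 381 in C57, 116 in 4B(+/+) and in 4D(+/+), and 109.7 in 4B(-/-) and in 4D(-/-), so the wild-type lines held one deposited value in common and the knockouts another. The gap of C57 was 3.28-fold, and 2.72-fold on the other Hlf probe set, where C57 read 283 and the lines 95.2 to 104. The dimmer readings and the brighter ones gave the same side for C57 in all 7 probe sets of these 3 genes.

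Nfil3, the repressor at the same D-boxes, ran the other way. Its single probe set (1418932_at) read 64.9 in C57, 148 in 4B(+/+), 138 in 4B(-/-), 128 in 4D(+/+) and 154 in 4D(-/-). C57 was 1.98-fold below the nearest line and sat at the floor, so the size of this difference rests on a value near background. The lines lay within 1.20-fold of each other.

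Among the repressors of CLOCK and ARNTL, Ciart was apart in C57 and Bhlhe40 was not. Ciart (1435188_at) read 102 in C57, 53.2 in each of 4B(+/+), 4B(-/-) and 4D(+/+), and 45.6 in 4D(-/-). C57 was 1.91-fold above the nearest, against values under the floor, and 3 lines held exactly the same value. Bhlhe40 (1418025_at), which represses at E-boxes and also responds to many signals outside the clock, read 648 in C57, 501 in 4B(+/+), 405 in 4B(-/-), 471 in 4D(+/+) and 560 in 4D(-/-). The array of C57 was highest, by 1.16-fold over 4D(-/-), a smaller distance than the 1.38-fold between the lines themselves.

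Wee1, the kinase that holds back entry into mitosis, lay between these patterns. Its probe set over the floor (1416773_at) read 385 in C57, 249 in 4B(+/+), 235 in 4B(-/-), 256 in 4D(+/+) and 300.4 in 4D(-/-). C57 was 1.28-fold above 4D(-/-), the same size as the spread of the 4 lines, also 1.28-fold. Rora, whose product is a RORE activator, differed little on any probe set. Its brightest (1424034_at) read 797 in C57, 683 in 4B(+/+), 713 in 4B(-/-), 658 in 4D(+/+) and 667 in 4D(-/-). On all 6 Rora probe sets over the floor C57 was highest, by 1.03-fold to 1.23-fold, and on 3 more under the floor it was not.

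Over the 17 probe sets of the members over the floor C57 was the highest array in 16 and the lowest in 1, that of Nfil3. Of all 18648 probe sets with 1 symbol over the floor, C57 was highest in 26.5%. By 1.5-fold or more, C57 was above every other array in 8 member probe sets and below in 1, against 0.349% and 0.322% of all. Counted by gene, Dbp, Tef, Hlf and Ciart were above in C57 and Nfil3 below, 4 and 1 of 8 members, where 0.322% and 0.4% of 11500 genes were so. Ciart, in both counts, and the dimmer Tef probe sets, in those by probe set, passed the floor through C57 alone. They thus had to be highest there. Among the gaps of C57 above the nearest line Dbp ranked 1 of 11500 genes, Hlf 3, Tef 7, Ciart 16, Wee1 177, Bhlhe40 596 and Rora 905. Nfil3 ranked 13 among the gaps below.

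**Figure D2:**
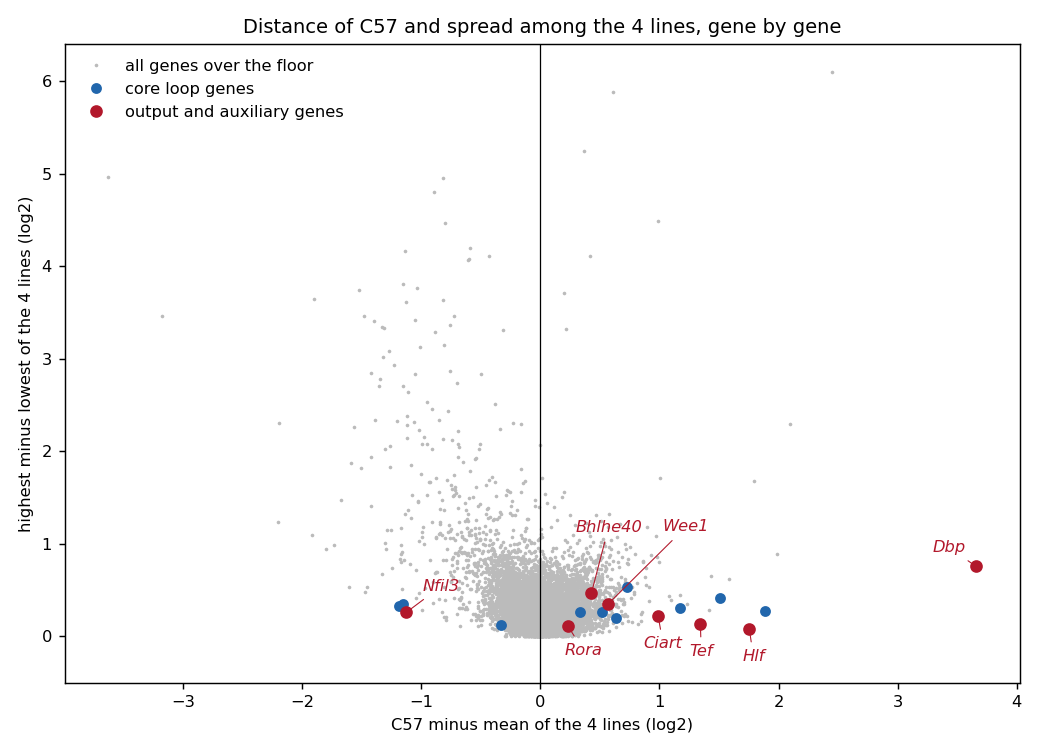
For each of 11500 genes, the log2 difference between C57 and the mean of the 4 lines (horizontal axis) and the highest minus the lowest log2 value among the 4 lines (vertical axis), with output and auxiliary genes in red and core loop genes in blue. Dbp lies farthest right, at 3.66, and Hlf (1.75) and Tef (1.34) lie to the right with little spread among the lines. Ciart (0.99) also lies to the right, with a spread near that of the median gene and line values under the floor. Nfil3 lies to the left at -1.12.

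The spread among the 4 lines was small for the activators other than Dbp. The median gene over the floor spanned 1.18-fold across the lines. The share of genes with a spread as small as that of the member, or smaller, was 13.2% for Hlf (1.06-fold), 20.9% for Rora and 26.7% for Tef. The shares for Ciart, Nfil3 and Wee1 were 47.0%, 55.5% and 71.0%, and for Bhlhe40 and Dbp 82.9% and 94.9%. The Dbp share rests on 1 of its 2 probe sets, since the other spanned 1.13-fold across the lines, less than the median gene.

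Each line was then compared with C57, and these 4 comparisons share the C57 array. In 4B(+/+), 5 of 8 members were lower than in C57 (Dbp, Tef, Hlf, Ciart and Wee1) and 1 was higher (Nfil3), where 1.33% of all genes were lower and 2.23% higher. Dbp was 14.1-fold lower, Hlf 3.28-fold, Tef 2.56-fold, Ciart 1.91-fold and Wee1 1.55-fold, and Nfil3 was 2.28-fold higher. In 4D(+/+) the same 5 genes were lower and Nfil3 higher, where 1.24% and 4.25% of all genes were so. Dbp was 10.6-fold lower, Hlf 3.28-fold, Tef 2.51-fold, Ciart 1.91-fold and Wee1 1.51-fold, and Nfil3 was 1.98-fold higher. The Wee1 difference is at the threshold, with a log2 value of -0.59 that became -0.57 after cyclic loess between the arrays.

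In 4B(-/-), 6 members were lower than in C57, the 5 above and Bhlhe40, and Nfil3 was higher, where 3.57% of all genes were lower and 2.53% higher. Dbp was 16.9-fold lower, Hlf 3.47-fold, Tef 2.42-fold, Ciart 1.91-fold, Wee1 1.64-fold and Bhlhe40 1.60-fold, and Nfil3 was 2.12-fold higher. In 4D(-/-), 4 members were lower (Dbp, Tef, Hlf and Ciart) and Nfil3 higher, where 0.791% and 1.37% of all genes were so. Dbp was 10.0-fold lower, Hlf 3.47-fold, Tef 2.67-fold and Ciart 2.23-fold, and Nfil3 was 2.37-fold higher. Wee1 was 1.28-fold and Bhlhe40 1.16-fold below C57 in this array, both within the threshold. The median log2 difference of the 8 members was -0.78 in 4B(+/+), -0.82 in 4B(-/-) and -0.76 in each of 4D(+/+) and 4D(-/-), beside medians over all genes of -0.02 to 0.01.

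The rest of the clock was described from lists. Of 12 core loop genes 11 had a probe set of their own and 10 were over the floor. In C57 3 of these 10 were above every other array by 1.5-fold (Per2, Per3 and Nr1d2) and 2 below (Arntl and Npas2), where 0.322% and 0.4% of all genes were so. Npas2 passed the floor through the lines alone, where it is high, and so had to differ. Per3, a repressor of CLOCK and ARNTL, read 385 in C57 and 92.1 to 111 in the lines, and Arntl, the obligate partner of CLOCK, read 160 in C57 and 320 to 402 in the lines. Both groups of arrays were thus separate for these genes. Per1 and Nr1d1 were highest in C57 as well, by 1.37-fold and 1.42-fold. Clock was lowest in C57, by 1.19-fold.

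The clock genes were also sorted by the element known to drive them. A list of 12 genes driven mainly through E-boxes, 6 of them members, had 11 over the floor. Of these 11 genes 11 were lower than C57 in 4B(+/+), 9 in 4B(-/-), 10 in 4D(+/+) and 8 in 4D(-/-). In any line 0 were higher, where between 0.791% and 3.57% of all genes were lower than C57. Ciart, 1 of the 11, passed the floor through C57 alone. Cry2 and the member Bhlhe40 were not on the list. Cry2 was past 1.5-fold below C57 only in 4B(+/+) (log2 difference -0.65), and Bhlhe40 only in 4B(-/-) (-0.68). This list and the next were chosen with earlier results of these data known. Apart from Usp2, all genes over the floor on these lists are members or core loop genes already counted above. The lists thus sort the same genes anew and add no separate set. Of 5 genes driven through ROREs (Nfil3, Arntl, Npas2, Clock and Cry1) 3 were higher in each line, namely Nfil3, Arntl and Npas2, and 0 lower, where between 1.37% and 4.25% of all genes were higher. Clock stayed within 1.5-fold in all 4 lines. Npas2 read 37.0 in C57, under the floor, and 74.0 to 94.3 in the lines. Cry1, which answers to both kinds of element, lay on the side of the E-box genes, at 274 in C57 against 193 to 231, within 1.5-fold.

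**Figure D3:**
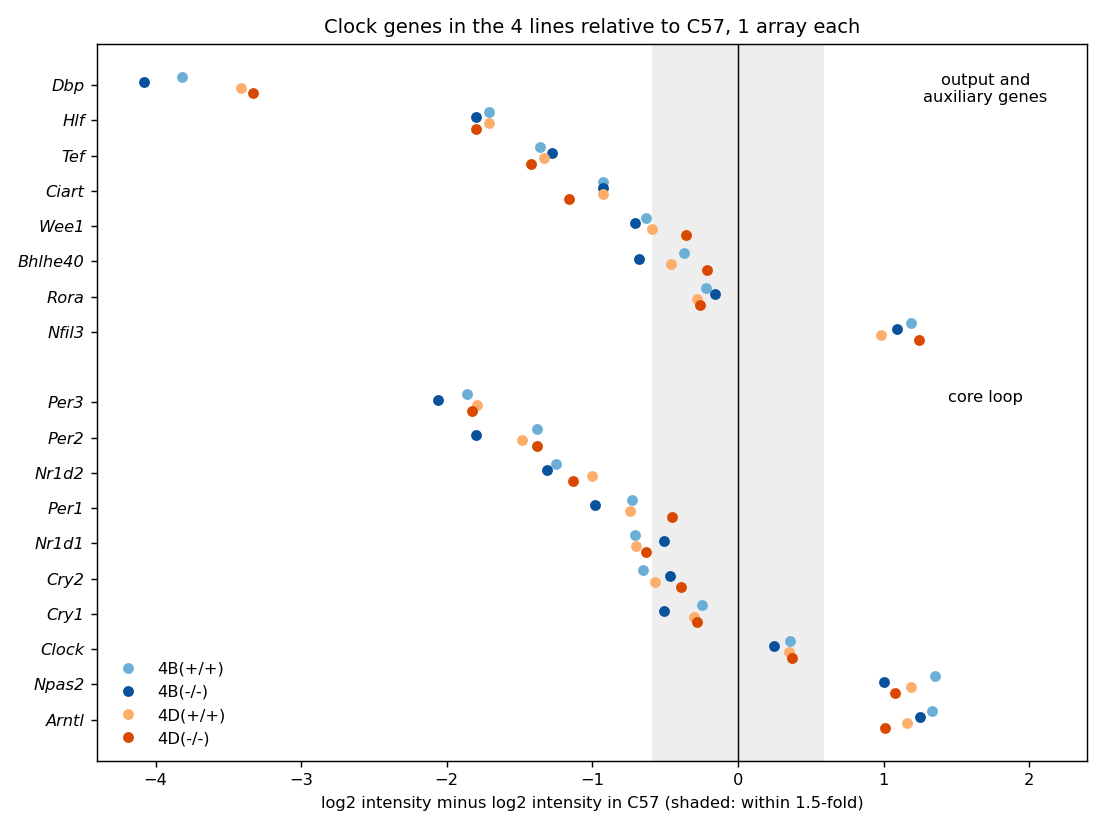
Log2 intensity of each line minus that of C57 (horizontal axis) for 8 output and auxiliary genes and 10 core loop genes (vertical axis), with 1 point per line and the range within 1.5-fold shaded. Dbp, Hlf, Tef and Ciart lie left of the shading in all 4 lines with Per2, Per3 and Nr1d2, and Nfil3 lies right of it with Npas2 and Arntl.

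Per comparison and direction, between 0.348% and 4.53% of all genes were past 1.5-fold, so a count of 0 among a few genes is no result about them. A list of kinases and ubiquitin ligases that act on clock proteins, which also held Timeless, had 8 of 10 genes over the floor. Of these, 0 were past 1.5-fold in any of the 8 comparisons. Of 7 listed targets of PAR bZIP factors, genes of haem and drug metabolism among them, 3 were over the floor (Alas1, Pdxk and Cyp2b10), and 0 passed 1.5-fold in any comparison. Their log2 differences from C57 ranged from -0.30 to 0.14. Of 11 other genes reported to cycle in mouse tissues, Tspan4 was above every line in C57, at 1316 against 493 to 558, and Pdk4 and Cdkn1a were below. By 1.5-fold, 0.322% of all genes were above every line in C57 and 0.4% below. Cdkn1a also varied among the lines, from 1145 to 2203. Against 4D(+/+), 3 of the 11 were higher in 4D(-/-) (Tsc22d3, Fkbp5 and Cdkn1a) and 0 lower, where 1.1% and 4.53% of all genes were so. Against 4B(+/+), 1 was higher in 4B(-/-) (Fkbp5) and 0 lower, where 0.383% and 0.93% were so. Usp2, already counted on the E-box list, was highest in C57, at 336 against 217 to 267.

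For each member that spanned at least 1 log2 unit over the 5 arrays, the genes most like it were found by the root mean square distance between log2 profiles, each centred on its own mean. Tspan4, a tetraspanin, followed Tef most closely of 11500 genes, at a distance of 0.03, before Prdm8 (0.12) and Rbm46 (0.14). Per3 was nearest to Hlf (0.10), followed by Prdm8 (0.15) and Per2 (0.17). Npas2 was the second nearest to Nfil3 (0.14), between Iglv1 (0.13) and Fap (0.15). The 3 genes nearest to Ciart were Lrrn3 (0.10), Gata3 (0.11) and Hs3st1 (0.12). Dbp had no close match, since its nearest were Egr1 (0.69), Per3 (0.74) and Hlf (0.81). These distances are over 5 arrays, and all of the named genes share the step between C57 and the lines. Prdm8 and Rbm46, like Ciart, passed the floor through C57 alone, and Fap and Npas2 through the lines alone. These genes had to show that step to be counted, so their likeness was partly fixed by the floor.

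Knockout and wild type of 1 line were then set side by side for each of the target genes. The brightest Pde4b probe set read 457 in 4B(-/-) and 558 in 4B(+/+). It read 438 to 468 in the other arrays, so 4B(-/-) lay inside their range. That of Pde4d read 386 in 4D(-/-) and 523 in 4D(+/+), with 456 to 484 in the other arrays. The labels do not say where the deletions lie relative to these probes. In 4B(-/-), 0 of 8 members were higher and 0 lower than in 4B(+/+), where 0.383% of all genes were higher and 0.93% lower. In 4D(-/-) 0 members were higher and 0 lower than in 4D(+/+), where 1.1% and 4.53% of all genes were so. With shares this low, 0 of 8 is what the background gives and is no result about these genes.

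The differences between knockout and wild type were small on every probe set over the floor. In the 4B line they ran from 1.24-fold lower (Bhlhe40) to 1.06-fold higher (Tef), and in the 4D line from 1.17-fold lower (Ciart) to 1.21-fold higher (a dim Tef probe set). Dbp was 1.20-fold lower in 4B(-/-) than in 4B(+/+) and 1.06-fold higher in 4D(-/-) than in 4D(+/+), but its other probe set read 1.13-fold lower in 4D(-/-). Nfil3 was 1.07-fold lower in 4B(-/-) and 1.20-fold higher in 4D(-/-), and Bhlhe40 1.24-fold lower and 1.19-fold higher. None of these sizes can be set against a spread between replicates. With C57 and both wild-type lines averaged as the reference, Dbp was lower by a log2 difference of -1.67 in 4B(-/-) and -0.92 in 4D(-/-), and Hlf by -0.66 in each, because C57 is part of that average.

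**Figure D4:**
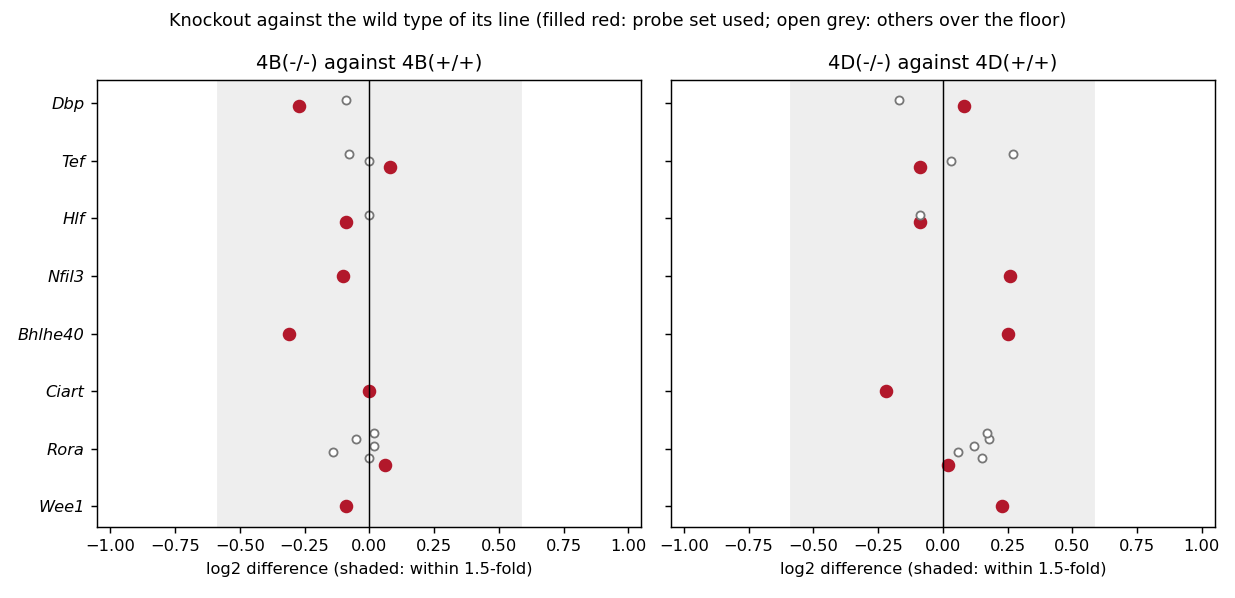
Log2 difference between knockout and wild type of the same line (horizontal axes, the 4B line on the left and the 4D line on the right) for the 8 members over the floor (vertical axis), with the probe set used in filled red, the others over the floor in open grey and the range within 1.5-fold shaded. All 17 probe sets lie inside the shading in both lines, between -0.31 and 0.27.

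The arrays of the lines were also compared across the 2 target genes. Between the wild-type lines 0 of 8 members were higher and 0 lower in 4D(+/+) than in 4B(+/+), where 1.57% and 0.348% of all genes were so. The largest difference was Dbp, 1.32-fold higher in 4D(+/+). Between the knockouts 1 member was higher in 4D(-/-) than in 4B(-/-), Dbp at 1.69-fold, and 0 were lower, where 2.8% and 2.97% of all genes were so. The other Dbp probe set read 73.4 and 73.5 in these arrays, so the difference rests on 1 of 2 probe sets. Bhlhe40 was 1.38-fold and Wee1 1.28-fold higher in 4D(-/-), both within the threshold.

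The lowest array among the 5 was 4B(-/-) for Dbp, Bhlhe40 and Wee1, 3 of 8 members, and for 5 of 10 core loop genes, while it was lowest for 18.9% of all genes. On the other Dbp probe set the lowest array was 4D(-/-), at 73.4 against 73.5 in 4B(-/-). From high to low, the arrays had the same order for Bhlhe40 as for Per1, namely C57, 4D(-/-), 4B(+/+), 4D(+/+) and 4B(-/-). This match was picked after the values were seen, and the share of all genes with that order was not computed. It rests on close values, since 4B(+/+) and 4D(+/+) read 466 and 462 for Per1 and 501 and 471 for Bhlhe40. Immediate early genes, which rise quickly upon many stimuli and share regulators with Bhlhe40 and Per1, had their lowest value in 4B(-/-) in 9 of 9 cases. They were also higher in C57. Of 9 over the floor, Fos, Egr1, Egr3 and Nr4a1 stood above every line there by 1.5-fold, where 0.322% of all genes were so. The summed intensity of the list was 11020 in C57 and 4547 to 6407 in the lines. The part of immediate early genes in the differences of the members was not tested.

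Markers of other tissues and cells, 60 with the lung markers, were read beside the members. Skeletal muscle markers, 9 of 9 over the floor, summed to 4518 in C57, inside the 4051 to 35492 of the lines, and 3 of 6 adipose markers to 1028, inside 724 to 4307. Alveolar macrophage (5 of 6) and NK cell markers (3 of 5) also had C57 inside the range of the lines. So did thyroid and parathyroid markers (2 of 3), at 4863 against 880 to 15172. Cartilage markers (7 of 7) were lowest in C57, at 412 against 986 to 1771. There 5 of 7 were below every line by 1.5-fold, where 0.4% of all genes were so. Of these, Cnmd (36.1 in C57), Col10a1 (51.4) and Matn1 (49.5) passed the floor through the lines alone. They thus had to differ from C57 to be counted, and their gaps rest on values under the floor. Neutrophil markers (4 of 5) summed to 5144 in C57 and 5420 to 11149 in the lines, but the low sum came from Ltf, and S100a8 and S100a9 were lower in 4D(-/-) than in C57. B-cell markers (3 of 5) were highest in C57, at 1025 against 599 to 860, and the 4 of 6 thymus markers over the floor summed to 173 in C57 and 173 to 1049 in the lines. Of these 4, Rag1 was below every line in C57, at 6.57 against 10.6 in 4D(-/-), both far under the floor, while Ccr9 and Ccl25 were lower in 4D(-/-) than in C57. No marker was listed at 0. The part of cartilage, neutrophil, B-cell and thymus RNA in the differences from C57 was not tested. In each knockout against its own wild type, 9 of 9 muscle markers and 2 of 2 thyroid and parathyroid markers were lower. Thymus markers were higher in 4B(-/-) (4 of 4), while 2 of 4 were lower in 4D(-/-). Of all genes 0.383% were higher and 0.93% lower in 4B(-/-), and 4.53% lower in 4D(-/-). The part of these tissues in the comparisons of knockout and wild type was not tested. The 3′ to 5′ ratio of actin, a sign of RNA quality, was 1.88 in C57 and 1.62 to 1.86 in the lines, and that of Gapdh 1.72 and 1.31 to 1.77.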

How the data were processed

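Whole-lung RNA, pooled from 3 lungs for each of 5 strains, was labelled from 0.3 µg and hybridised to 1 array per strain, per the labels' protocols. The authors deposited 1 linear intensity per probe set and array, made with RMA per the submitters' processing notes, without version or settings given. RMA makes array distributions equal (medians 45.4 to 46.6) and often gives several arrays the same value. The number of arrays limits the precision.

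Intensities were converted to log2 with numpy 2.4.6 and pandas 2.3.3. Of 45101 probe sets 34958 had 1 symbol. Each gene took the brightest of its probe sets (highest mean log2 value), and 11500 of 18194 genes reached log2 6 in their highest array. All members are named. Of other lists, the up to 4 genes with the largest difference and the 3 nearest profiles may be named, and further genes (Per1, Nr1d1, Clock, Cry1, Usp2 and those given as counts of calls) were chosen after their values were seen. Members and lists were chosen with earlier results of these data known. Alternatives were 2-fold, floors of log2 5 and 7 or none, the median of probe sets, cyclic loess (limma 3.58.1), median centring and the mean of 3 wild-type arrays. The counting was tested on simulated data.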

Additional observations from a re-analysis of the deposited data

How the results depend on the processing

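Of 130 recomputed counts of members higher, lower or apart in C57, 121 stayed within 1.5 times the reported count under the alternatives run, many of them at 0. With 2-fold as threshold, the members lower than C57 numbered 3 in each of 4B(+/+), 4B(-/-) and 4D(+/+) (Dbp, Hlf and Tef). Of all genes 0.209%, 0.652% and 0.183% were so. At that threshold 0 members were higher than C57 in 4D(+/+), 0 had C57 below every other array, and 0 were higher in 4D(-/-) than in 4B(-/-). The shares of all genes for these were 1.83%, 0.104% and 0.496%, so these counts of 0 are no result about the members. When all probe sets of a gene were summarised by their median, the count between the knockouts was also 0, since Dbp had a log2 difference of 0.38, and Wee1 in 4B(+/+) and 4B(-/-) against C57 had -0.34 and -0.42, within 1.5-fold. With C57 and both wild-type lines averaged as the reference, 2 members (Dbp and Hlf) were lower in 4B(-/-) and 2 in 4D(-/-), where the own wild type gave 0. The share of all genes called against that average was not computed. Of 392 recomputed member differences 384 kept their side of the threshold and 0 called ones changed sign. No replicate could be left out, and no paired analysis was possible because each strain has 1 array. Signal over background limits Ciart, Nfil3 and Bhlhe41, which were near or under the floor in C57 or in the lines.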
